A study of Homo sapiens with 6 samples.

Results

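The genes described here encode the proteasome, and they were taken from the table of HT-29 transcripts by their symbols. Every symbol made of PSMA, PSMB, PSMC, PSMD, PSME, PSMF or PSMG and a number was kept, which gave 48 of the 63241 genes listed. They comprise 8 core α subunits, 8 core β subunits, 3 inducible β subunits of the immunoproteasome, 6 ATPases and 11 non-ATPases of the regulatory particle, 7 assembly factors, and 5 genes for activators and an inhibitor. RNA-seq was performed on HT-29, a human colorectal adenocarcinoma cell line of wild-type genotype, in 2 groups of 3 libraries. The control group (Control) received buffer, and the Amuc_0904 group (A904) received 0.5 μM Amuc_0904, a recombinant tagged outer membrane protein of *Akkermansia muciniphila* made in *Escherichia coli*, for 72 h in both groups. Whether the 3 libraries of a group came from separate cultures is not given in the sources used here, so p values measure the spread between these libraries, which may be technical. All libraries came from 1 cell line, so they speak for that line only.

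The proteasome is the protease that degrades most ubiquitin-tagged proteins of the cell. Its core is a stack of α and β rings in which PSMB5, PSMB6 and PSMB7 cut the substrate, and interferon-γ leads cells to make PSMB8, PSMB9 and PSMB10, which take their places and favour peptides for MHC class I. The regulatory particle binds ubiquitin chains, and its ring of ATPases unfolds the substrate and feeds it into the core. In the colon, epithelial cells express both kinds of core, and the inducible subunits are known for their rise in inflamed mucosa.

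The deposited values are TPM, which are relative to gene length and to all transcripts of a library, so levels can be compared between genes, and a change is a change in the share of transcripts. In bulk RNA, fewer cells of a type and less RNA per cell cannot be told apart. The labels call the cells enterocytes. Of 7 colon epithelium markers, *KRT8* ranged from 2682 to 3291 TPM and *EPCAM* from 546 to 621 TPM, while *CDX2* reached at most 1.71 TPM. Of 8 markers of mature absorptive enterocytes, *FABP1* ranged from 117 to 149 TPM and *ANPEP* from 0.39 to 1.77 TPM, and the other 6 stayed at or below 0.17 TPM in every library. *CD3E*, *COL1A2*, *CDH5* and *KDR* were listed at 0 and *PTPRC* reached at most 0.02 TPM. The summed level of the 6 leukocyte markers, 2581 to 2627 TPM in the controls and 2479 to 2701 TPM in the Amuc_0904 group, was nearly all *LYZ*. The fibroblast markers summed to 1.75 to 2.92 TPM and the endothelial markers to 0.63 to 1.52 TPM over the 6 libraries.

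One library stood apart. On the first principal component of all tested genes the controls lay at -13.0 to -12.4, Amuc_0904 replicates 2 and 3 at 20.4 and 22.8, and Amuc_0904 replicate 1 at -4.79, nearer to the controls. The share of TPM from mitochondrially encoded genes was 12.8% to 13.5% in the controls, 10.6% and 11.1% in Amuc_0904 replicates 2 and 3, and 13.0% in Amuc_0904 replicate 1. Fold changes of the genes described are given with and without this library, and its part in the results beyond that was not tested. Leaving it out leaves 3 controls against 2 libraries. Leaving out each library in turn was planned, but this one was singled out because its values differ from replicates 2 and 3. Small p values without it therefore reflect that choice too and are not separate support.

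In replicates 2 and 3 of the Amuc_0904 group, the transcripts of the constitutive core and of the regulatory particle lay above every control, without exception, and those of the inducible subunits lay below every control. In replicate 1 the constitutive and regulatory transcripts did not lie together on one side of the controls. The 3 inducible genes lay above every control there, as did 42.1% of all tested genes. Of the 31 constitutive core and regulatory genes tested, all 31 exceeded the highest control in replicate 2 and all 31 in replicate 3, where 31.3% and 30.6% of all tested genes did so. All 3 inducible genes lay below every control in both replicates, where 37.9% and 39.1% of all tested genes did so. In replicate 1, 12 of the 31 were above every control and 6 below every control, beside 42.1% and 16.0% of all tested genes. Summed over these genes, including 2 listed at 0, the level was 6637, 6521 and 6687 TPM in the controls, and 6671, 8006 and 8033 TPM in Amuc_0904 replicates 1 to 3. The mean was 6615 ± 85.0 TPM in the controls and 7570 ± 779 TPM in the Amuc_0904 group (SD, n = 3 each), and replicate 1 alone lay within the range of the controls. The difference was 14.4% of the control mean, and 21.2% without replicate 1.

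**Figure D1:**
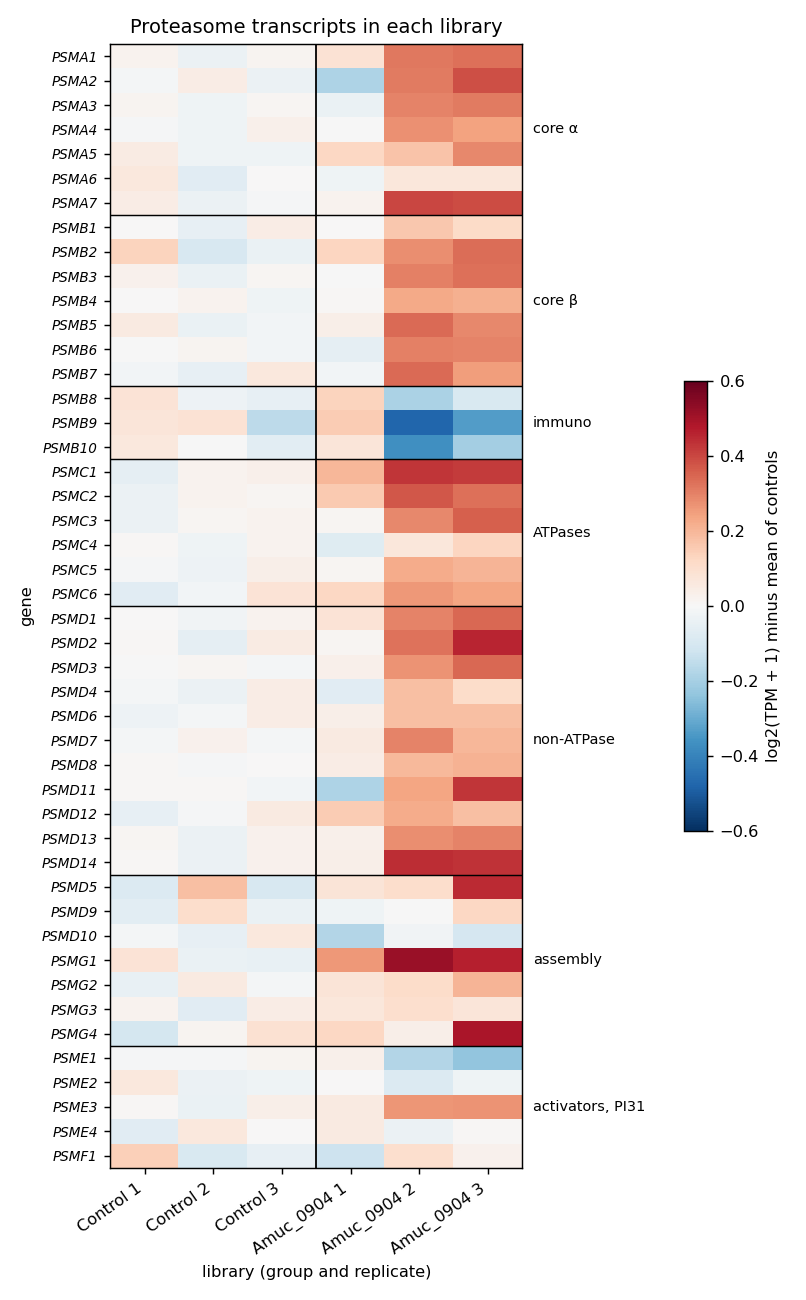
Each row is 1 of the 46 tested proteasome genes and each column 1 library, and the colour gives log2(TPM + 1) minus the mean of the 3 controls for that gene. The 31 core and regulatory genes are red in Amuc_0904 replicates 2 and 3, and the 3 inducible genes are blue there. Replicate 1 is near the controls, and the 3 inducible genes lie above every control in it.

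No gene of the 48 passed the test over all 6 libraries. The test was limma on log2(TPM + 1) for the 14333 genes that reached 1 TPM in 3 or more libraries, with Benjamini-Hochberg adjustment over them. PSMA8 and PSMB11, the α subunit known from testis and the β subunit known from thymus, were listed at 0 TPM in all 6 libraries and were not tested. Of the 46 tested, 0 were called higher and 0 lower at an adjusted p under 0.05, where 0.0698% and 0.167% of all genes were. The adjusted p values of the 46 ran from 0.152 to 0.995. Unadjusted p values under 0.05 were found for 21 of the 46 with higher and for 0 with lower levels, beside 9.95% and 5.87% of all tested genes. Mean log2 levels were higher in the Amuc_0904 group for 40 genes and lower for 6, where 50.4% of all genes were higher and 49.6% lower. All 3 Amuc_0904 libraries exceeded all 3 controls for 16 genes and were below them for 0, beside 13.4% and 7.59% of all genes. The median log2 fold change was 0.18 over the 46 and 0.0015 over all genes tested.

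Without Amuc_0904 replicate 1, limma called 31 of the 46 higher and 3 lower at an adjusted p under 0.05, beside 9.51% and 9.24% of 14077 genes. The 3 that fell were *PSMB9*, *PSMB10* and *PSME1*, all from genes known to respond to interferon-γ, and 12 genes did not pass. At an unadjusted p, 33 were higher and 4 lower, beside 15.9% and 18.4% of all genes, and the mean was higher for 39 and lower for 7, beside 44.8% and 55.2%. The median log2 fold change of the 46 was then 0.25, and that of all genes was -0.03. Kept but weighted by their scatter, the 6 libraries had weights of 0.224 for replicate 1 and 1.26 to 1.49 for the other 5. Then 28 of the 46 were called higher and 1 lower, beside 1315 and 1056 of 14333 genes. All 29 were among the 34 called without replicate 1, but so low a weight comes near to leaving that library out.

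**Figure D2:**
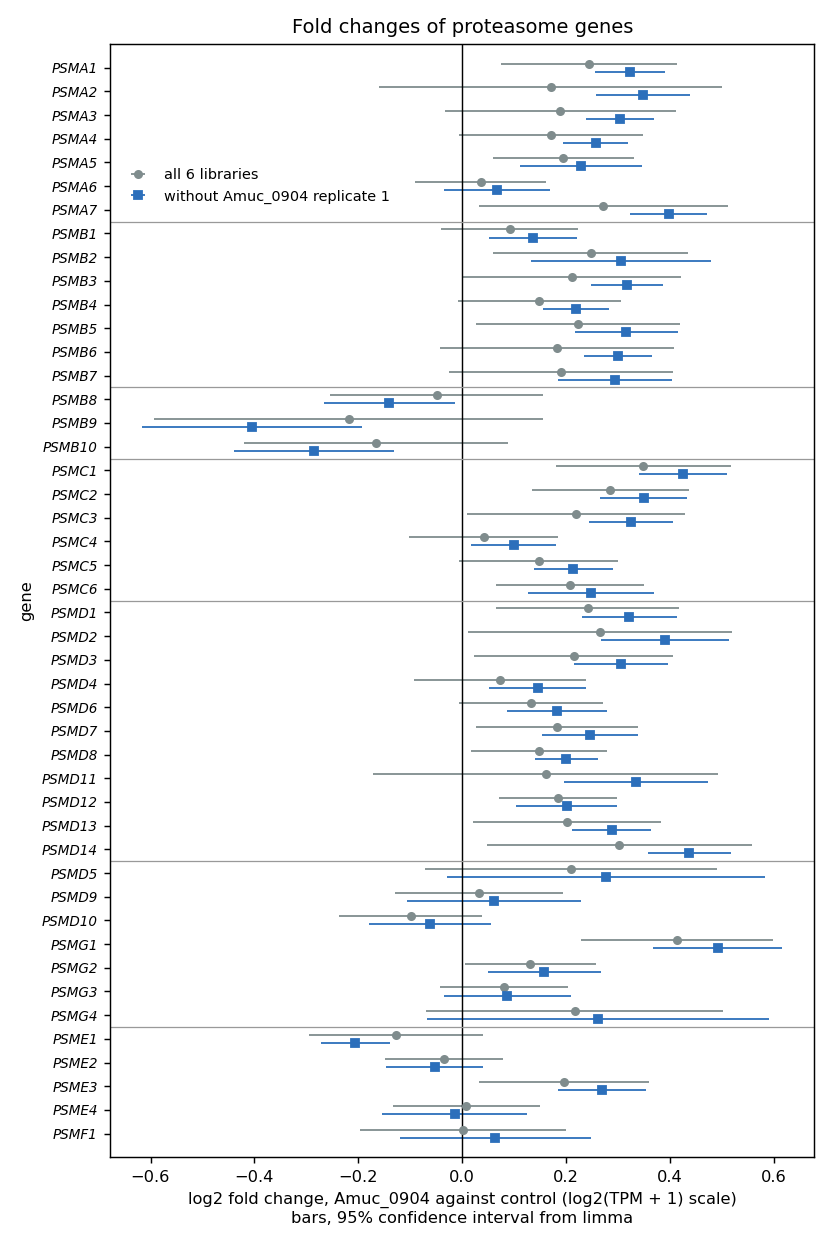
Log2 fold changes of the 46 tested genes (horizontal axis, log2(TPM + 1) scale) with 95% confidence intervals from limma, for all 6 libraries (grey circles) and without Amuc_0904 replicate 1 (blue squares). The blue intervals are narrower for most genes, and 31 genes were called higher and 3 lower without that library, and 0 with it.

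The regions upstream of 5 genes are printed to show the sequence from which these groups of genes are transcribed. One gene was taken from each of the core α, core β, non-ATPase, activator and inducible groups, among the named genes with over 150 bases upstream that no annotated exon covers. Sequences are from RefSeq on GRCh38.p14, read 5′ to 3′ on the strand of the gene, and positions are counted back from the RefSeq transcription start. Capitals mark matches, on either strand, to CCAAT, the letters bound by NF-Y, to TGACNNNGC, the core of the antioxidant response element bound by NRF factors, or to TTCNNNGAA, the letters bound by STAT factors. A match describes the letters and is not a binding site.
PSMA5: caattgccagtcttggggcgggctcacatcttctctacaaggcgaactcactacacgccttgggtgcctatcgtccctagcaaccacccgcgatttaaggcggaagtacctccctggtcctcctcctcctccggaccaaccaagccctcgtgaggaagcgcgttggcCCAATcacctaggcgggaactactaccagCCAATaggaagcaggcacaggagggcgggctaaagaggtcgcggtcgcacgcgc
PSMB3: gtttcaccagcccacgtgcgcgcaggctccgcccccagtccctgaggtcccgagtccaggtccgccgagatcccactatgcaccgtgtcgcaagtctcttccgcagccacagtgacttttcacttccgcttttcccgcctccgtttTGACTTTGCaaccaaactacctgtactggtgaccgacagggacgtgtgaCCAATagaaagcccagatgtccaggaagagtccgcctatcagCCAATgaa
PSMD12: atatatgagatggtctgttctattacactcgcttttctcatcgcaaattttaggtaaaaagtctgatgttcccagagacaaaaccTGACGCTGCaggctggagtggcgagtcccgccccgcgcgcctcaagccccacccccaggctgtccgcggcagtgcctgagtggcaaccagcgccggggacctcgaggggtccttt
PSME1: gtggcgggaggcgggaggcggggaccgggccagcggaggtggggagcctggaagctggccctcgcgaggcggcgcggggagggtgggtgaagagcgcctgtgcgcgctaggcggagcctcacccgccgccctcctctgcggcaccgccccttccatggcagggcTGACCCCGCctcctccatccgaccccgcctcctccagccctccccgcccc
PSMB9: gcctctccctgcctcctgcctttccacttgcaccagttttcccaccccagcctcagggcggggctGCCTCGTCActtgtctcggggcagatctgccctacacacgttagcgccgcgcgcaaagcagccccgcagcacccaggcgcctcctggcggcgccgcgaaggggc

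The PSMA5 stretch (chr1:109426449-109426698, minus strand) held CCAAT at 83 and 54 bases before the start. The PSMB3 stretch (chr17:38752491-38752735, plus strand) held it at 55 and 13 bases, with TGACNNNGC at 104 bases. The PSMD12 stretch (chr17:67366628-67366827, minus strand) held TGACNNNGC at 165 bases and the PSME1 stretch (chr14:24135944-24136157, plus strand) held it at 86 bases. The PSMB9 stretch (chr6:32853979-32854147, plus strand), which lies within the longer GENCODE model of the gene and outside its exons, held TGACNNNGC on the opposite strand at 148 bases. RefSeq windows of 300 bases, 250 before and 50 after each start, were at hand for 42 of the 48 genes, with 51 windows in all. CCAAT was in 20 of the 51 windows (39.2%) and in 34.6% of all 35116 windows. TGACNNNGC was in 15 of 51 (29.4%) beside 13.3% of all, and TTCNNNGAA in 8 of 51 (15.7%) beside 7.66% of all. Every printed stretch held a match, so they do not stand for their groups. Among the genes given with values per library, the windows of *PSMA1*, *PSMB10*, *PSMC1*, *PSMC6* and *PSMG4* held no match. CCAAT was in 4 of 6 windows of core β genes, that of the unexpressed *PSMB11* included, while *PSMB1*, *PSMB6* and *PSMB7* had no window. It was in 1 of 4 windows of the inducible genes, that of *PSMB9*, outside its printed stretch, and in 1 of 6 of the activators and inhibitor. TGACNNNGC was in 4 of 7 windows of assembly factors, 3 of 6 of the activators and inhibitor, and 1 of 10 of the core α genes. These groups are small.

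The 7 tested α subunits form the outer rings of the core, which gate its entrance. Their control means ranged 7.39-fold, from 106 TPM for *PSMA5* to 782 TPM for *PSMA4*, although each is present once in an α ring. *PSMA5* was 109.6, 103.9 and 103.9 TPM in the controls and 115.5, 119.0 and 129.4 TPM in Amuc_0904 replicates 1 to 3. The groups did not overlap, and the log2 fold change was 0.19 ± 0.06 (SE, limma adjusted p = 0.238). Without replicate 1 it rose by 0.23 ± 0.05. *PSMA1*, another subunit of the α ring, was 311.2, 299.8 and 310.3 TPM in the controls and 325.6, 382.8 and 386.3 TPM in the Amuc_0904 group, with log2 fold change 0.24 ± 0.07 (SE, adjusted p = 0.238), and it rose by 0.32 ± 0.03 without replicate 1. *PSMA7* was 399.4, 378.2 and 384.9 TPM in the controls and 393.2, 511.9 and 509.2 TPM in the Amuc_0904 group. Its replicate 1 lay among the controls, and the log2 fold change was 0.27 ± 0.10 with all libraries and 0.40 ± 0.03 without that replicate. The groups did not overlap for *PSMA5* and *PSMA1* alone among the α subunits, where 13.4% of all tested genes lay higher without overlap. Without replicate 1, 6 of the 7 rose, at log2 fold changes up to 0.40, beside 9.51% of all tested genes. *PSMA6* did not pass there (0.07 ± 0.04, SE, limma adjusted p = 0.319, and 0.204 to 0.990 over all alternatives).

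The constitutive β subunits form the inner rings, and their control means ranged 7.83-fold, from 75.2 TPM for *PSMB2* to 588 TPM for *PSMB3*. *PSMB2*, a β subunit without catalytic activity, was 82.4, 70.2 and 72.9 TPM in the controls and 82.2, 91.1 and 94.8 TPM in the Amuc_0904 group. *PSMB3*, likewise not catalytic, was 599.6, 572.7 and 593.1 TPM in the controls and 587.5, 726.1 and 741.0 TPM in the Amuc_0904 group. In both genes replicate 1 lay within the control range and replicates 2 and 3 above it. Their log2 fold changes were 0.25 ± 0.08 and 0.21 ± 0.09 (SE, limma adjusted p = 0.254 and 0.314), and without replicate 1 they rose by 0.31 ± 0.07 and 0.32 ± 0.03. Over the 7 tested β subunits the mean was higher for 7, beside 50.4% of all tested genes. The groups did not overlap for 0, where 13.4% of all tested genes lay higher without overlap. Without replicate 1 all 7 rose, at log2 fold changes of 0.14 to 0.32, beside 9.51% of all tested genes.

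The constitutive and inducible catalytic subunits lay on opposite sides of the controls in Amuc_0904 replicates 2 and 3. *PSMB5*, the chymotrypsin-like subunit, was 104.5, 97.9 and 99.5 TPM in the controls and 103.2, 127.8 and 123.2 TPM in the Amuc_0904 group. *PSMB8*, which takes its place in the immunoproteasome, was 168.2, 155.9 and 153.5 TPM in the controls and 174.6, 139.3 and 149.3 TPM in the Amuc_0904 group. *PSMB8* was thus the more abundant of this pair in all 6 libraries, and the ratio of *PSMB8* to *PSMB5* was 1.61, 1.59 and 1.54 in the controls and 1.69, 1.09 and 1.21 in the Amuc_0904 group. *PSMB6*, the caspase-like subunit, was 182.5, 184.9 and 180.4 TPM in the controls and 176.1, 225.7 and 224.4 TPM in the Amuc_0904 group. *PSMB9*, its inducible counterpart, was 71.4, 72.2 and 60.8 TPM in the controls and 75.6, 48.6 and 53.6 TPM in the Amuc_0904 group. Here the constitutive gene was the more abundant, and the ratio of *PSMB9* to *PSMB6* was 0.391, 0.391 and 0.337 in the controls and 0.430, 0.215 and 0.239 in the Amuc_0904 group. *PSMB7*, the trypsin-like subunit, was 246.4, 240.3 and 260.1 TPM in the controls and 246.2, 315.1 and 295.8 TPM in the Amuc_0904 group. *PSMB10*, its counterpart, was 75.4, 71.9 and 68.9 TPM in the controls and 75.9, 55.7 and 62.4 TPM in the Amuc_0904 group. For all 3 inducible genes, replicate 1 was the highest of the 6 libraries and replicates 2 and 3 were the lowest. Of all tested genes, 42.1% lay above every control in replicate 1, and 37.9% and 39.1% lay below in replicates 2 and 3.

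**Figure D3:**
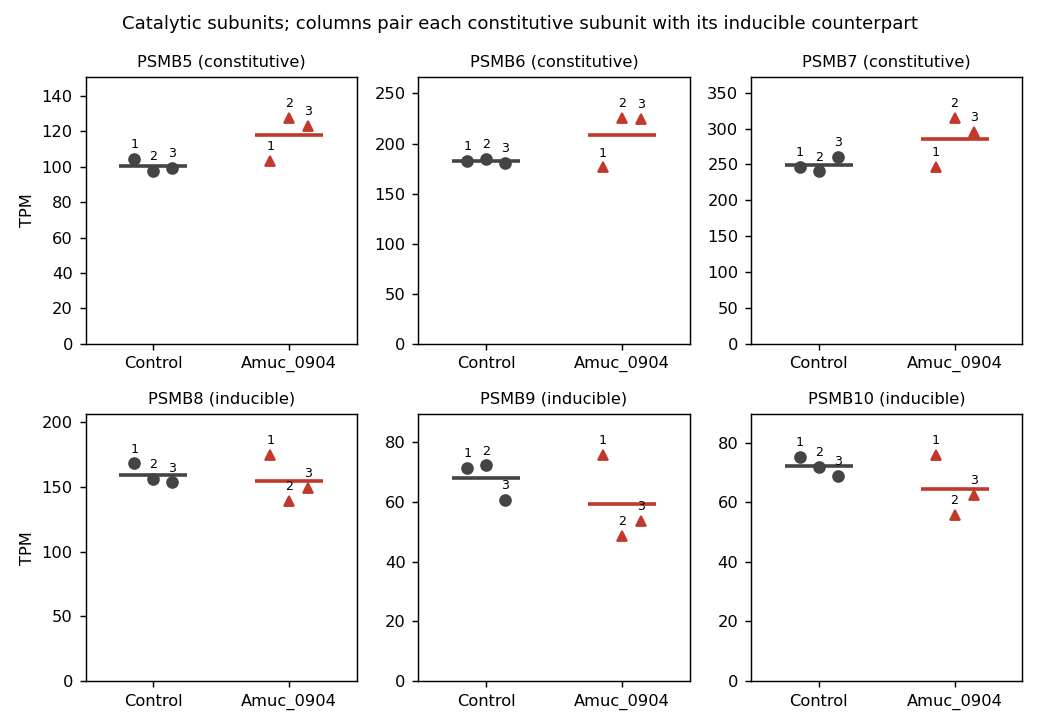
TPM of the 6 catalytic subunits in each library, with circles for controls, triangles for the Amuc_0904 group, the replicate number beside each point and a bar at the group mean. Replicates 2 and 3 lie above the controls for *PSMB5*, *PSMB6* and *PSMB7* and below them for *PSMB8*, *PSMB9* and *PSMB10*.

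With all 6 libraries, the log2 fold changes of *PSMB5*, *PSMB6* and *PSMB7* were 0.22 ± 0.08, 0.18 ± 0.10 and 0.19 ± 0.09 (SE, limma adjusted p = 0.282, 0.398 and 0.363). Those of *PSMB8*, *PSMB9* and *PSMB10* were -0.05 ± 0.09, -0.22 ± 0.16 and -0.17 ± 0.11 (SE, adjusted p = 0.815, 0.535 and 0.487). The intervals of the 3 inducible genes were wide: that of *PSMB9* ran from -0.59 to 0.16. Without replicate 1, *PSMB5*, *PSMB6* and *PSMB7* rose by 0.32, 0.30 and 0.29 on the log2 scale. *PSMB9* fell by 0.40 ± 0.09 and *PSMB10* fell by 0.29 ± 0.06 (SE, limma adjusted p = 0.0254 and 0.0282, the lowest values over all alternatives, whose highest were 0.881 and 0.857). *PSMB8* was at -0.14 ± 0.05 there and did not pass (adjusted p = 0.114, with 0.978 the highest over all alternatives).

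As a share of the TPM of the 6 catalytic subunits, the inducible genes made up 37.1%, 36.4% and 34.4% in the controls and 38.3%, 26.7% and 29.2% in the Amuc_0904 group. The mean was 36.0% ± 1.42 in the controls and 31.4% ± 6.10 in the Amuc_0904 group (SD, n = 3 each), and the groups overlapped through replicate 1. The difference was -4.60 percentage points with all libraries and -8.04 without replicate 1. With 3 libraries a group, the smallest two-sided p of an exact permutation test is 0.1, so none was run.

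**Figure D4:**
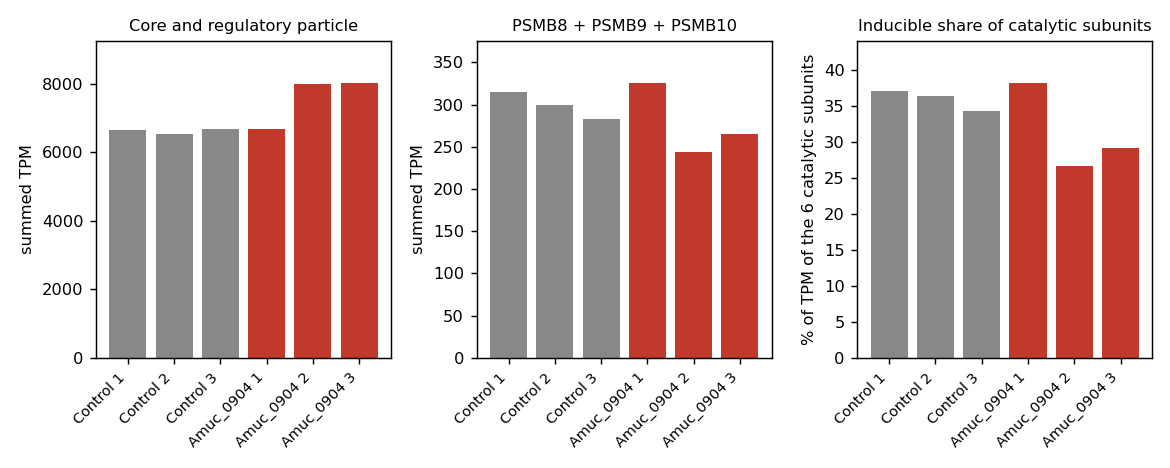
Bars give, for each library, the summed TPM of the constitutive core and regulatory genes, the summed TPM of *PSMB8*, *PSMB9* and *PSMB10*, and the inducible share of the TPM of the 6 catalytic subunits in percent. The first sum is 8006 and 8033 TPM in Amuc_0904 replicates 2 and 3 and at most 6687 TPM in the other 4 libraries, while the share is 26.7% and 29.2% there and 34.4% to 38.3% elsewhere.

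Neighbouring genes complicate the inducible pair on chromosome 6. In the GENCODE annotation on GRCh38, *PSMB8* (chr6:32840717-32844703, minus strand) and *PSMB9* (chr6:32844136-32859585, plus strand) overlap, and *PSMB9* also overlaps *TAP1*. The antisense gene *PSMB8-AS1* was at 17.1, 15.2 and 14.9 TPM in the controls and 18.6, 12.7 and 13.2 TPM in the Amuc_0904 group, with replicates 2 and 3 again the lowest. *PSMB10* (chr16:67934502-67937087) lies elsewhere and overlaps no gene above 5 TPM. Of the 48 genes, 29 overlap another annotated gene and 13 overlap one with a mean above 5 TPM. Whether reads were assigned by strand is not stated, so reads of such pairs may not be separable.

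The ATPase ring of the regulatory particle had 4 of 6 genes higher at an unadjusted p under 0.05, where 9.95% of all tested genes were. *PSMC2* was 103.7, 107.9 and 107.4 TPM in the controls and 118.7, 137.7 and 133.8 TPM in the Amuc_0904 group. The groups did not overlap, and the log2 fold change was 0.29 ± 0.06 (SE, limma adjusted p = 0.212), with a rise of 0.35 ± 0.03 without replicate 1. *PSMC6* was 91.7, 94.8 and 101.9 TPM in the controls and 104.9, 115.0 and 113.3 TPM in the Amuc_0904 group, also without overlap (0.21 ± 0.06, SE, adjusted p = 0.238), and rose by 0.25 ± 0.05 without replicate 1. *PSMC1* was 174.6, 184.3 and 185.2 TPM in the controls and 208.1, 244.4 and 242.9 TPM in the Amuc_0904 group, with log2 fold change 0.35 ± 0.07 (SE, adjusted p = 0.185) and a rise of 0.42 ± 0.035 without replicate 1. The value of *PSMC1* is uncertain, because its processed copy *PSMC1P5* was listed at 61.7, 0 and 13.7 TPM in the controls and at 73.1, 123.6 and 0 TPM in the Amuc_0904 group and may share its reads. Together with *PSMC1P5* and *PSMC1P1*, the level was 247.8, 196.9 and 210.1 TPM in the controls and 289.6, 382.1 and 257.7 TPM in the Amuc_0904 group, and the groups still did not overlap. Without replicate 1, 5 of the 6 ATPases rose, beside 9.51% of all tested genes. *PSMC4* was at 0.10 ± 0.03 there without passing (limma adjusted p = 0.0907, with 0.0645 to 0.997 over all alternatives).

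The non-ATPase subunits hold the lid and base together and include the ubiquitin receptors and the deubiquitinase. Of 11, 8 were higher at an unadjusted p under 0.05 (9.95% of all tested genes), and the Amuc_0904 group lay above the controls without overlap for 7 (13.4% of all tested genes). *PSMD12*, a scaffold subunit of the lid, was 127.4, 130.9 and 136.8 TPM in the controls and 146.3, 153.9 and 149.1 TPM in the Amuc_0904 group, and all 3 treated libraries lay above all controls. Its log2 fold change was 0.18 ± 0.05 (SE, limma adjusted p = 0.232), and it rose by 0.20 ± 0.04 without replicate 1. *PSMD1*, a large scaffold of the base, was 61.3, 60.3 and 62.2 TPM in the controls and 64.9, 75.6 and 78.1 TPM in the Amuc_0904 group (log2 fold change 0.24 ± 0.07, SE, adjusted p = 0.248), and it rose by 0.32 ± 0.04 without replicate 1. *PSMD14*, the deubiquitinase that removes ubiquitin chains before the substrate enters, was 110.8, 107.4 and 112.3 TPM in the controls and 112.8, 149.9 and 149.1 TPM in the Amuc_0904 group. Its replicate 1 exceeded the highest control by little and replicates 2 and 3 by much, and the log2 fold change was 0.30 ± 0.11 with all libraries and 0.44 ± 0.03 without replicate 1. Without that replicate all 11 rose, from 0.15 for *PSMD4*, a ubiquitin receptor, to 0.44 for *PSMD14*, beside 9.51% of all tested genes. Over the 31 core and regulatory genes, 29 kept a positive log2 fold change in every one of the 16 alternatives. The exceptions were *PSMA6*, at -0.01 after quantile normalization, and *PSMC4*, at -0.02 after it and at -0.0026 without Amuc_0904 replicate 3.

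Assembly factors help the particles form and are not part of the finished proteasome. *PSMG1*, a chaperone of the α ring, had the smallest p of the 48 genes. It was 64.4, 59.2 and 58.9 TPM in the controls and 72.9, 87.4 and 84.5 TPM in the Amuc_0904 group, and every treated library lay above every control. The log2 fold change was 0.41 ± 0.08 (SE), a 1.33-fold difference, with a limma adjusted p of 0.152. Without replicate 1 the rise was 0.49 ± 0.05 (SE, adjusted p = 0.00288, with 0.00248 to 0.506 over all alternatives). *PSMG2*, its partner in the chaperone dimer, was 123.7, 132.3 and 126.7 TPM in the controls and 134.5, 137.9 and 147.2 TPM in the Amuc_0904 group, without overlap (0.13 ± 0.05, SE, adjusted p = 0.307), and was at 0.16 ± 0.04 without replicate 1, where it did not pass. *PSMG4*, which works with *PSMG3* on the α ring, was 24.3, 26.5 and 27.9 TPM in the controls and 28.6, 26.8 and 37.2 TPM in the Amuc_0904 group, where replicate 3 alone stood out. Its log2 fold change was 0.22 ± 0.12 with all libraries and 0.26 ± 0.14 without replicate 1 (SE), and it passed in neither. *PSMD5*, *PSMD9* and *PSMD10*, which escort the ATPases, had log2 fold changes of 0.21 ± 0.12, 0.03 ± 0.07 and -0.10 ± 0.06 (SE), and of 0.28 ± 0.13, 0.06 ± 0.07 and -0.06 ± 0.05 without replicate 1. *PSMG1* was the only one of the 7 assembly factors called without replicate 1, where 9.51% of all tested genes were called higher.

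The activators dock on the core in place of the regulatory particle. *PSME1* and *PSME2*, the subunits of the interferon-inducible activator, were the most abundant of them, with control means of 461 and 465 TPM. *PSME1* was 458.5, 459.6 and 466.2 TPM in the controls and 471.1, 408.0 and 391.95 TPM in the Amuc_0904 group. Its replicate 1 was again the highest of all 6 and replicates 2 and 3 the lowest, and the log2 fold change was -0.13 ± 0.07 (SE, limma adjusted p = 0.426). Without replicate 1 it fell by 0.21 ± 0.03 (SE, adjusted p = 0.00577, the lowest over all alternatives, with 0.777 the highest). *PSME2*, on chromosome 14 like *PSME1*, was 485.2, 453.4 and 455.9 TPM in the controls and 464.9, 439.1 and 456.8 TPM in the Amuc_0904 group, and its groups overlapped. The log2 fold change of *PSME2* was -0.03 ± 0.05 with all libraries and -0.05 ± 0.04 without replicate 1 (SE). *PSME3*, the nuclear activator that is not interferon-inducible, was 102.9, 99.7 and 104.9 TPM in the controls and 106.2, 123.5 and 123.8 TPM in the Amuc_0904 group. It was the one gene of these 5 without overlap, where 13.4% of all tested genes lay higher without overlap. The log2 fold change of *PSME3* was 0.20 ± 0.07 with all libraries (SE, limma adjusted p = 0.270), and it rose by 0.27 ± 0.03 without replicate 1. *PSME4*, the activator known for histone degradation, and *PSMF1*, an inhibitor of the core, were at 0.01 ± 0.06 and 0.0015 ± 0.08 (SE), with intervals from -0.13 to 0.15 and from -0.20 to 0.20, and at -0.01 ± 0.06 and 0.06 ± 0.08 without replicate 1.

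Across the 46 tested genes, which share the same 6 libraries, Spearman's rho between control mean and log2 fold change was 0.005. Of all 48 genes, untested ones included, 8 lie on chromosome 14 and 7 on chromosome 17, and only *PSMB8* and *PSMB9* overlap each other.

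Other genes of the pathway were taken from lists. Of 22 partners (shuttling receptors, associated deubiquitinases, chaperones and transcriptional regulators), unadjusted p values under 0.05 were found for 8 with higher and 0 with lower levels, beside 9.95% and 5.87% of all tested genes. With all libraries 0 were called in either direction, and without replicate 1, 6 rose and 0 fell, beside 9.51% and 9.24% of all genes. *USP14*, a deubiquitinase bound to the regulatory particle, was 98.6, 95.6 and 96.7 TPM in the controls and 104.1, 113.6 and 113.2 TPM in the Amuc_0904 group. *TXNL1*, a thioredoxin-like protein of the regulatory particle, was 65.5, 62.9 and 65.4 TPM in the controls and 68.8, 82.5 and 79.7 TPM in the Amuc_0904 group. *UCHL5*, another associated deubiquitinase, was 53.4, 58.2 and 62.2 TPM in the controls and 63.3, 73.4 and 77.7 TPM in the Amuc_0904 group. For 11 of the 22 partners all treated libraries exceeded all controls, beside 13.4% of all tested genes. For 1 of the 22 they lay below all controls, beside 7.59%. *USP14*, *TXNL1* and *UCHL5* were among the 11 and had been taken for their small p values. The log2 fold changes of these 3 were 0.18 ± 0.05, 0.25 ± 0.07 and 0.30 ± 0.09 (SE, limma adjusted p = 0.238, 0.243 and 0.247). Without replicate 1 they rose by 0.22 ± 0.03, 0.32 ± 0.04 and 0.38 ± 0.07. *POMP* and *NFE2L1* were singled out after their values were seen. *POMP*, which matures the β ring, was 568.6, 537.6 and 535.6 TPM in the controls and 518.1, 688.9 and 701.8 TPM in the Amuc_0904 group, so that replicate 1 was below every control and replicates 2 and 3 above. Its log2 fold change was 0.20 ± 0.11 with all libraries (SE, limma adjusted p = 0.422), and it rose by 0.35 ± 0.03 without replicate 1. *NFE2L1*, the transcription factor known to induce proteasome genes when degradation falls short, was the one partner below every control in all 3 treated libraries, at 62.8, 66.8 and 60.5 against 60.1, 58.5 and 55.5 TPM (log2 fold change -0.13 ± 0.06, SE, adjusted p = 0.351). Without replicate 1 it was at -0.15 ± 0.05 and did not pass.

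Among 16 genes for ubiquitin supply and unfolding, 4 had higher and 0 had lower levels with an unadjusted p under 0.05, beside 9.95% and 5.87% of all tested genes. Without replicate 1, 6 rose and 0 fell, beside 9.51% and 9.24% of all genes. *UBE4B*, a ubiquitin chain elongation factor, was 21.2, 21.2 and 19.8 TPM in the controls and 24.8, 26.1 and 26.6 TPM in the Amuc_0904 group. *UBE2K*, a ubiquitin-conjugating enzyme, was 81.3, 84.7 and 82.9 TPM in the controls and 92.9, 96.6 and 92.4 TPM in the Amuc_0904 group. In both genes replicate 1 lay with the other treated libraries, and the log2 fold changes were 0.30 ± 0.06 and 0.18 ± 0.05 (SE, limma adjusted p = 0.166 and 0.232), with rises of 0.33 ± 0.05 and 0.19 ± 0.04 without replicate 1. *UFD1*, an adaptor of the unfoldase VCP, was 107.4, 107.4 and 115.0 TPM in the controls and 116.1, 146.0 and 147.6 TPM in the Amuc_0904 group (0.30 ± 0.10, SE, adjusted p = 0.249), and it rose by 0.41 ± 0.04 without replicate 1.

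The 8 genes for peptide loading and interferon regulation act on the peptides the proteasome makes or on the inducible subunits. In replicate 1, 7 of the 8 were above every control and 0 below, beside 42.1% and 16.0% of all tested genes. In replicate 2, 0 were above and 7 below, beside 31.3% and 37.9%, and in replicate 3, 1 was above and 4 below, beside 30.6% and 39.1%. *TAPBP*, the tapasin that loads MHC class I, was 79.3, 79.6 and 77.8 TPM in the controls and 79.8, 57.3 and 59.3 TPM in the Amuc_0904 group. Its log2 fold change was -0.28 ± 0.12 (SE, limma adjusted p = 0.315), and it fell by 0.43 ± 0.04 without replicate 1 (SE, adjusted p = 0.00183, the lowest over all alternatives, with 0.649 the highest). *ERAP2*, a peptidase that trims these peptides, was 36.3, 37.1 and 37.3 TPM in the controls and 37.5, 27.3 and 30.9 TPM in the Amuc_0904 group. Its log2 fold change was -0.22 ± 0.11 with all libraries (SE, limma adjusted p = 0.376), and it fell by 0.34 ± 0.06 without replicate 1. *IRF1*, a transcription factor of the interferon response known to drive *PSMB9*, was 37.6, 103.6 and 36.5 TPM in the controls and 36.7, 31.4 and 31.7 TPM in the Amuc_0904 group, so its control mean was set by replicate 2. The log2 fold change of *IRF1* was -0.64 ± 0.37 with all libraries and -0.71 ± 0.50 without Amuc_0904 replicate 1 (SE), and it passed in neither. With all libraries 0 of the 8 were called and 1 was lower at an unadjusted p under 0.05 (*TAPBP*), beside 5.87% of all tested genes. Without replicate 1, 3 fell, beside 9.24% of all genes.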

How the data were processed

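Total RNA of 6 HT-29 libraries, 3 given buffer and 3 given Amuc_0904, was sequenced. The authors trimmed the reads with SeqPrep and Sickle, aligned them with HISAT2 and assembled transcripts with StringTie. RSEM, edgeR and the mouse build GRCm38.p6 also stand in the submitters' processing notes, without versions, although the gene identifiers are human. The deposited values are TPM per gene. No counts were used here, so depth and counting error are unknown, and tests that need counts were not run. The table lists 63241 genes, and 25 lines of spilled annotation text were left out.

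The 14333 genes that reached 1 TPM in 3 or more libraries were log2(TPM + 1) transformed and tested in R 4.3.3 by limma 3.58.1, with condition as the term, a trend of variance on level and robust moderation, and all p values were Benjamini-Hochberg adjusted over the tested genes. Fold changes are on that scale and understate those of low genes. Only genes with an adjusted p under 0.05 are described as rising or falling. The test was checked on simulated data in which no library stood apart, so that check does not cover the departure of Amuc_0904 replicate 1. The fit was repeated with a pseudocount of 0.1, without the filter, with at least 5 TPM, with library weights, with a replicate block, without the trend, with 3 other scalings and without each library. The fit that joins median-of-ratios scaling with leaving out Amuc_0904 replicate 1 was chosen after seeing the data. So was the choice to give each gene also without that replicate.

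The genes and lists were chosen with earlier results of these data known. Values per library are given for the 6 catalytic subunits, the 3 genes of smallest unadjusted p in each group and list, and genes under 1 TPM throughout. Positions are from GENCODE v29 on GRCh38, promoters from RefSeq on GRCh38.p14. The highest share of identical values between 2 libraries was 0.59% of tested genes, so no library was taken as a copy. Protein sequences were not analysed here.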

Additional observations from a re-analysis of the deposited data

How the results depend on the processing

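With all 6 libraries, no alternative of scaling, pseudocount, filter or variance model called a proteasome gene, and library weights called 28 higher and 1 lower. Leaving out 1 library called 0 to 31 higher and 0 to 3 lower. Only leaving out Amuc_0904 replicate 1 gave any call, or 32 higher and 3 lower when median-of-ratios scaling was added. Calls over all genes moved too. Library weights called 1315 higher and 1056 lower of 14333 genes. Without Amuc_0904 replicate 1 they were 1339 and 1301 of 14077 genes, and 1536 and 1088 with the scaling added. At an unadjusted p under 0.05, the count of 21 higher became 32 with library weights, 11 without the trend, 9 with median-of-ratios scaling, 12 with quantile normalization, 8 to 33 on leaving out 1 library, and 33 with scaling added to leaving out replicate 1. The count lower became 3 with library weights, 0 to 4 on leaving out 1 library and 3 with both changes. Over all tested genes, such shares were taken only with all 6 libraries (9.95% higher, 5.87% lower) and without Amuc_0904 replicate 1 (15.9% and 18.4%). The other settings have no such share beside them. The median log2 fold change of the 46 genes stayed positive throughout, at 0.1154 with quantile normalization, 0.1229 to 0.2522 on leaving out 1 library and 0.2766 with both changes. The change in summed TPM was 11.1%, and 8.45% to 16.1% on leaving out 1 library. The difference in inducible share was -4.60 percentage points and ran from -8.04 without Amuc_0904 replicate 1 to -2.25 without Amuc_0904 replicate 2. Of the 46 genes, *PSMA6*, *PSMB8*, *PSMC4*, *PSMD9*, *PSME4* and *PSMF1* changed sign under some alternative, and none of these 6 was called in any. The log2 fold change of *PSMB8* was -0.14 to 0.0214 on leaving out 1 library, and those of *PSMD9*, *PSME4* and *PSMF1* ran from -0.01 to 0.08, -0.03 to 0.04 and -0.05 to 0.09 over all alternatives. Why these values moved with the library was not tested.

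A replicate block called 0 proteasome genes higher and 0 lower and gave 18 of them higher at an unadjusted p under 0.05. Over all 14333 genes it called 5 higher and 16 lower, beside 10 and 24 without the block. Libraries with the same number did not deviate together (r = 0.046, -0.039 and -0.005 for replicates 1 to 3), so no pairing by number was seen. With 3 libraries a group and Amuc_0904 replicate 1 apart from the others, these values cannot exclude pairing. The block changed no call among the proteasome genes. Depth is unknown, since only TPM are given.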
